A study of Mus musculus with 6 samples.

Results

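Interferon-stimulated genes were examined in RNA from mouse esophagus after treatment with an agonist antibody against GITR, a costimulatory receptor of T cells. The set holds 34 genes, chosen by name as interferon-stimulated antiviral genes and interferon-inducible GTPase genes, with MHC and chemokine genes left out. All 34 were matched by symbol to the 54232 gene IDs of the count files, and all 34 were among the 15763 genes that passed the filter on low counts. They fall into 25 antiviral genes and 9 GTPase genes of the Gbp and Irg families. Mx1 and Mx2 also encode GTPases, of the dynamin type, and were kept with the antiviral genes.

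All mice, controls included, had taken the carcinogen 4-nitroquinoline 1-oxide (4-NQO) at 100 µg/ml in drinking water for 16 weeks from 8 weeks of age, followed by 12 weeks of plain water, a regimen used to raise squamous tumors of the esophagus. From 2.5 weeks before sacrifice, the mice behind 3 libraries received 10 µg of DTA-1, the anti-GITR antibody, and those behind the other 3 libraries 10 µg of an isotype control antibody, in both cases 2 times a week by intraperitoneal injection, with harvest on the day after the last dose. Polyadenylated RNA came from minced, frozen esophagus that had been enriched for invading tumor cells. Neither strain nor sex is stated, and there was no group without carcinogen. Whether the libraries stem from separate animals is not stated either, and the spread that the p-values rest on may therefore be technical in part.

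Library totals ranged from 23147873 to 29065162 counts, and 3 reads, the floor used here, correspond to 0.108 to 0.141 CPM (counts per 1000000, with library sizes scaled by the TMM method). The tissue was mixed. A list of 10 squamous markers took 3.30% to 4.33% of counts in isotype and 0.692% to 2.61% in DTA-1 libraries, and 10 striated muscle markers took 4.67% to 8.07% and 8.58% to 11.8%. In such bulk samples, fewer cells of a type and less RNA per cell cannot be told apart.

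Interferons are secreted proteins that alert cells to infection. Type I interferons signal through the receptor pair Ifnar1 and Ifnar2 to a complex that includes Stat2 and Irf9 and binds a DNA element called ISRE, whereas type II interferon (Ifng, made by T and NK cells) signals through Ifngr1 and Ifngr2 to genes with an element called GAS. Both routes switch on proteins that sense viral nucleic acid, block translation or destroy RNA, and the Gbp and Irg GTPases, which attack the membranes around intracellular microbes.

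Letter patterns like these elements lie upstream of many of the genes, and stretches that hold them are shown because their choice rested on no sequence. RefSeq promoters (GRCm38.p6) were at hand for 25 of the 34 genes, and the 250 bases before each start were searched. The ISRE-like pattern was GAAA, any 2 bases and GAAA again, on either strand, and the GAS-like pattern was TTCNNNGAA, which reads the same on both strands. A member of the Gbp and Irg families with an entry always held the ISRE-like pattern (6 of 6 genes), and 9 of 19 antiviral genes did, against 3.25% of the 11708 tested genes in the same table. The GAS-like pattern was in 3 of those 6 GTPase genes and 4 of those 19 antiviral genes, against 843 of those 11708 tested genes. Neither pattern was found in this window for 8 antiviral genes, among them Irf7, Irf9, Ddx58 and Ifih1. A gene with several annotated starts counted once, if any of its windows held the pattern. Below, letters in capitals mark the matches, each stretch runs 5′ to 3′ on the strand of its gene, and all bases lie upstream of the RefSeq start. GENCODE, which gives the gene bounds printed elsewhere, can place a start differently: 8 of the 9 stretches also lie upstream of the outermost GENCODE start, and that of Irgm2 lies inside the GENCODE gene, in 0 bases of its exons.

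4 antiviral genes with ISRE-like matches come first, and Socs1, the single member whose groups did not overlap, follows them.
Isg15 (chr4:156200855-156200916, minus strand): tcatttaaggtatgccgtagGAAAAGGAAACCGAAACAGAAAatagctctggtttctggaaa
Ifit1 (chr19:34640765-34640833, plus strand): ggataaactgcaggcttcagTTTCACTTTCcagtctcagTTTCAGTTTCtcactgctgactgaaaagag
Ifit3 (chr19:34583353-34583436, plus strand): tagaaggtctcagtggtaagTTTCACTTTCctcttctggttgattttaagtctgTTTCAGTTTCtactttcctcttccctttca
Bst2 (chr8:71537567-71537628, minus strand): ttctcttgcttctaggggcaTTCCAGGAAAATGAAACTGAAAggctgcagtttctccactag
Socs1 (chr16:10785584-10785639, minus strand): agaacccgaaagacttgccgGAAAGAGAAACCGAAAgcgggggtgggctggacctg
Irf1, which has a GAS-like match alone, and 3 GTPase genes complete the set.
Irf1 (chr11:53769904-53769952, plus strand): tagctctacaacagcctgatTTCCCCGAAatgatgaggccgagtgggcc
Gbp7 (chr3:142530210-142530312, plus strand): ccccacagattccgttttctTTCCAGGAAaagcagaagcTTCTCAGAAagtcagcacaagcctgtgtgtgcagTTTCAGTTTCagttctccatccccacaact
Igtp (chr11:58199491-58199551, plus strand): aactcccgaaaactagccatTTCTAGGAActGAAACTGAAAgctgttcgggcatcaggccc
Irgm2 (chr11:58214882-58214942, plus strand): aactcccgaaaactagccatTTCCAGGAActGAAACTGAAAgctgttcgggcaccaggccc

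The Isg15 stretch has 3 ISRE-like matches that overlap by 4 bases each, and in Bst2 a GAS-like match runs into 2 ISRE-like ones. In the neighbors Igtp and Irgm2 a GAS-like match stands 2 bases before an ISRE-like one, and these stretches were identical at 59 of 61 positions. Matches of the GTPase genes lay near the RefSeq start, the ISRE-like ones ending between 15 and 55 bases upstream of it. For Gbp2, Gbp3, Irgm1 and Irgm2 part or all of the stretch around the matches falls inside the GENCODE gene. A match is a run of letters and no evidence of binding in this tissue.

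**Figure D1:**
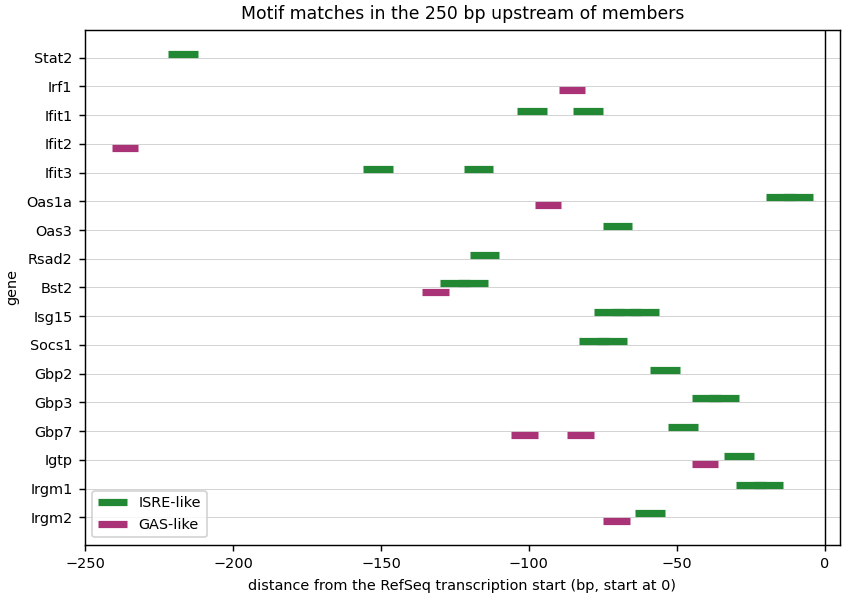
Positions of ISRE-like (green) and GAS-like (purple) matches in the 250 bp upstream of the RefSeq start of each member that has a match; the horizontal axis is distance in bp from the start at 0. Matches of the 6 GTPase genes at the bottom lie within 106 bp of the start, and those of Stat2 and Ifit2 lie at least 213 bp away.

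The comparison of DTA-1 with isotype asks whether GITR agonism changed the interferon response of the diseased tissue. None of the 34 genes passed edgeR's quasi-likelihood test (adjusted p from 0.39 to 0.995 after Benjamini-Hochberg adjustment over all tested genes), where the background over all 15763 genes was 0 calls, or 0.00%. Without DTA-1 replicate 1 the same test called 601 of 16303 tested genes, 539 of them lower, and 0 of 34 members. At an unadjusted p under 0.05, 1 member, Socs1, was lower with DTA-1 and 0 were higher, against 7.52% and 5.21% of all tested genes. DESeq2 called 180 of 16084 genes (1.12%), 0.852% being called as lower, and limma-voom called 0 genes; 0 members were called by either. The groups overlapped in 33 of 34 members. In 1 member, again Socs1, the groups were apart with DTA-1 lower, which holds for 9.38% of tested genes, and in 0 members were they apart with DTA-1 higher, which holds for 8.60%.

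The 2 families leaned to different sides of 0, by less than the spread between libraries. Of 25 antiviral genes 17 had negative fold changes (DTA-1 over isotype), with a median of -0.087 on the log2 scale, and of 9 GTPase genes 2 did, with a median of 0.18. Over all tested genes 52.9% were negative and the median was -0.031. The GTPase median was 0.62 when isotype replicate 2 was left out. It changed sign to -0.16 without DTA-1 replicate 2, to -0.14 when isotype replicate 3 was left out, and to -0.026 with library totals alone, a scaling that moved the median of all genes to -0.19. For the antiviral median the extremes were -0.49, when DTA-1 replicate 2 was left out, and 0.22, when DTA-1 replicate 1 was. The self-test on simulated counts recovered 5% of genes changed 2-fold and 56% of genes changed 4-fold at this size, so changes of 2-fold or less would mostly go uncalled. Its changed genes were drawn at random from all tested genes. The members varied more within groups (median SD 0.74 against 0.34 on the log2 scale), so these shares need not hold for them. Recovery of the members themselves was not tested.

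**Figure D2:**
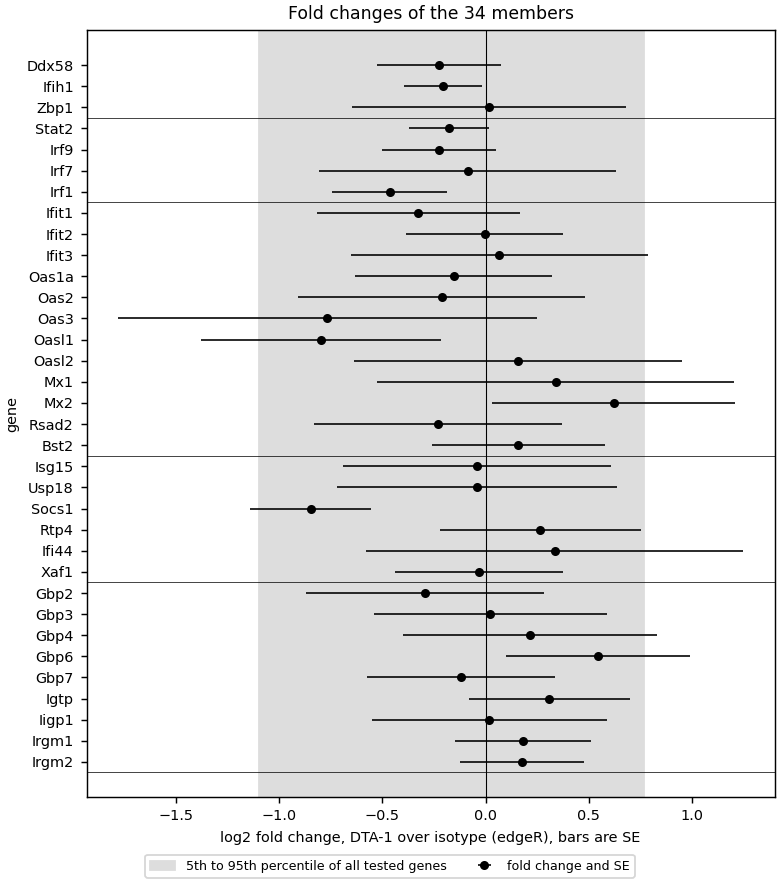
Log2 fold change of each member, DTA-1 over isotype, with its standard error as a bar; the grey band spans the 5th to 95th percentile (-1.10 to 0.77) of all tested genes. All 34 points lie inside the band, Socs1 at -0.85 and Mx2 at 0.62 being the extremes.

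Sensors of foreign nucleic acid are described first. In what follows, values stand in the order of replicates 1, 2 and 3 of each group. Ddx58 encodes RIG-I, which recognizes uncapped viral RNA, and stood at 18.5, 16.9 and 11.3 CPM in the isotype libraries and 8.91, 15.7 and 15.3 CPM in the DTA-1 libraries. Ifih1 encodes MDA5, the sensor of long double-stranded RNA, and stood at 23.2, 27.8 and 23.4 CPM in the isotype libraries and 19.5, 25.96 and 19.00 CPM in the DTA-1 libraries. Both overlapped between groups, and Ifih1 was the steadiest of all members, its highest library being 1.46 times its lowest. The fold change was -0.22 ± 0.30 (log2, SE) for Ddx58 and -0.21 ± 0.19 for Ifih1. Zbp1, a sensor of Z-form nucleic acid that can start necroptosis, was scarcer and varied more, from 1.19 CPM in isotype replicate 3 to 5.31 in isotype replicate 1.

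The transcription factors of the pathway had negative fold changes in 4 of 4 cases, against 52.9% of all tested genes. None passed the test (adjusted p from 0.467 to 0.963 in edgeR). For Irf7 the sign depended on the library left out, with fold changes from -0.62 to 0.63. Stat2, which carries the type I signal into the nucleus, stood at 21.2, 27.01 and 21.4 CPM in the isotype libraries and 23.7, 20.3 and 17.5 CPM in the DTA-1 libraries. Irf9, which binds DNA in the same complex, stood at 29.4, 29.6 and 20.5 CPM in the isotype libraries and 15.9, 30.3 and 21.8 CPM in the DTA-1 libraries. These 2 genes differed by less than 2-fold across the 6 libraries. Irf7, which amplifies type I interferon production, spread far more, at 23.4, 12.3 and 3.97 CPM in the isotype libraries and 4.35, 20.1 and 12.8 CPM in the DTA-1 libraries. The lowest Irf7 level of each group, in isotype replicate 3 and DTA-1 replicate 1, was far below the other 2 of that group. Irf1, an early factor of the type II response, stood at 33.1, 28.4 and 18.8 CPM in the isotype libraries and 14.5, 24.1 and 19.6 CPM in the DTA-1 libraries, means of 26.8 ± 7.303 CPM under isotype antibody and 19.4 ± 4.801 CPM under DTA-1 (SD, n = 3 each). DTA-1 replicates 2 and 3 lay within the isotype range and replicate 1 below it, the fold change being -0.47 ± 0.28 with an adjusted p of 0.467 in edgeR. Without isotype replicate 3 its unadjusted p in edgeR was 0.0469 and its fold change -0.64. In that fit 2886 of 16221 tested genes had an unadjusted p under 0.05, and Irf1 was the 1 member among them.

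Among 12 antiviral effectors, 7 fold changes were negative and 5 positive, and all 12 overlapped between groups. The Ifit genes encode proteins that bind the 5′ ends of foreign RNA and block its translation. Ifit1 stood at 16.3, 27.1 and 9.31 CPM in the isotype libraries and 13.2, 21.4 and 7.44 CPM in the DTA-1 libraries, and Ifit2 at 7.63, 8.26 and 5.77 CPM in the isotype libraries and 3.91, 10.3 and 7.401 CPM in the DTA-1 libraries. Ifit3 stood at 14.4, 13.4 and 4.04 CPM in the isotype libraries and 2.57, 14.4 and 16.3 CPM in the DTA-1 libraries. Ifit3 was low in isotype replicate 3 and DTA-1 replicate 1 and high in the other 4 libraries, whereas Ifit1 was lowest in DTA-1 replicate 3. Of the 50-base words in Ifit3 transcripts, 51.2% also occur in other genes, mainly Ifit3b, so that its level is uncertain.

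The Oas genes make short adenylate chains that activate an RNA-degrading enzyme, and Oasl1 and Oasl2 are relatives of these genes. Oasl2 stood at 15.5, 13.99 and 2.74 CPM in the isotype libraries and 3.04, 20.6 and 12.3 CPM in the DTA-1 libraries, and Oasl1 at 8.11, 8.902 and 6.42 CPM in the isotype libraries and 5.09, 7.21 and 1.198 CPM in the DTA-1 libraries. Oasl2 followed the pattern of Ifit3, with low values in isotype replicate 3 and DTA-1 replicate 1, and Oasl1 was low in DTA-1 replicate 3 alone. Oas1a, Oas2 and Oas3 stayed between 0.261 and 4.28 CPM. Oas3 had the widest range of all members, its highest library being 15.6 times its lowest. Oas1a shares 57.6% of its 50-base words with other genes, mainly Oas1g, and is uncertain for that reason.

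Rsad2 encodes viperin, which makes a chain-terminating nucleotide, and stood at 4.61, 13.3 and 4.94 CPM in the isotype libraries and 5.35, 11.1 and 2.99 CPM in the DTA-1 libraries. Bst2 encodes tetherin, which holds budding virus at the cell surface, and stood at 13.9, 14.9 and 8.19 CPM in the isotype libraries and 7.04, 13.6 and 20.5 CPM in the DTA-1 libraries. Rsad2 was highest in isotype replicate 2 and DTA-1 replicate 2, and Bst2 was highest in DTA-1 replicate 3. The Mx genes were at the bottom of the set. Mx1, a dynamin-like blocker of influenza virus that is defective in many laboratory strains, lay between 0.174 and 2.03 CPM, and Mx2 between 0.391 and 1.497 CPM. The highest Mx1 level, in DTA-1 replicate 2, was 11.6 times the lowest, in DTA-1 replicate 1. The fold change of Mx1 was 0.34 ± 0.86, and that of Mx2 0.62 ± 0.59.

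Isg15 encodes a ubiquitin-like protein that is attached to viral and host proteins, and Usp18 removes it and also damps the type I receptor. Isg15 stood at 9.29, 7.05 and 2.53 CPM in the isotype libraries and 2.17, 10.2 and 5.99 CPM in the DTA-1 libraries, with means of 6.29 ± 3.45 CPM under isotype antibody and 6.11 ± 4.003 CPM under DTA-1 (SD, n = 3 each) and a fold change of -0.042 ± 0.65. Usp18 reached 7.68 CPM in DTA-1 replicate 2 and was lowest in DTA-1 replicate 1. For these 2 genes the group means were close and the libraries far apart. Rtp4, a chaperone-like protein that has been linked to the control of type I signaling, stood at 5.57, 8.94 and 3.46 CPM in the isotype libraries and 3.52, 8.57 and 9.498 CPM in the DTA-1 libraries, with its 3 highest values in isotype replicate 2 and DTA-1 replicates 2 and 3. Ifi44 lay between 0.435 and 6.03 CPM, and Xaf1, an antagonist of the apoptosis inhibitor XIAP, between 2.87 and 6.53 CPM.

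Socs1, the inhibitor of JAK kinases that ends interferon signaling, was the exception to the overlap. It stood at 8.62, 5.36 and 6.93 CPM in the isotype libraries and 4.57, 3.53 and 3.51 CPM in the DTA-1 libraries, means of 6.97 ± 1.63 CPM under isotype antibody and 3.87 ± 0.603 CPM under DTA-1 (SD, n = 3 each). The highest DTA-1 library, at 4.57 CPM, lay below the lowest isotype library, at 5.36. The fold change was -0.85 ± 0.29 (log2, SE), with an unadjusted p of 0.0223 and an adjusted p of 0.39 in edgeR, and it did not pass. DESeq2 gave an adjusted p of 0.166, and over all alternatives and libraries left out the adjusted p of these tools ranged from 0.134 to 0.859 with fold changes from -1.001 to -0.65. Socs1 lies on chromosome 16 (10782240 to 10785536, minus strand, GRCm38), and no other annotated gene overlaps it. The 9 T cell markers, with Cd8a at 0 in at least 1 library, summed to 20.5, 23.05 and 11.3 CPM in the isotype libraries and 9.04, 11.6 and 5.904 CPM in the DTA-1 libraries. Cd5 made up much of these sums, at 10.5, 10.8 and 4.36 CPM in the isotype libraries and 5.52, 3.82 and 1.33 CPM in the DTA-1 libraries. Of the 8 T cell markers that were tested, 0 had positive fold changes and 3 did not overlap between groups, with DTA-1 lower. Over all tested genes 52.9% were negative and 9.38% were apart with DTA-1 lower. The squamous markers named above also had 0 positive fold changes among 10. The part of either in the Socs1 values was not tested.

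Per length of transcript, 3 GTPase genes and Bst2 had the highest levels of the set, and Gbp4 and Gbp6 were near its bottom. Per kilobase of exon and averaged over 6 libraries, Igtp stood at 15.1, Gbp2 at 14.2 and Irgm2 at 11.4 CPM. Of the antiviral genes Bst2 reached 14.4, Isg15 8.203 and Ifit3 6.22, and Mx1 and Mx2 were lowest at 0.196 and 0.208. These lengths are unions of all annotated exons, which lowers the value of genes with long rare exons.

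Gbp2, a guanylate-binding protein that coats vacuoles of intracellular pathogens, stood at 25.7, 73.7 and 18.5 CPM in the isotype libraries and 16.00, 38.8 and 41.4 CPM in the DTA-1 libraries. Isotype replicate 2 stood far above the other 5 libraries. Iigp1, which encodes the effector Irga6, had the same high library, at 11.5, 41.8 and 11.8 CPM in the isotype libraries and 14.7, 32.8 and 18.3 CPM in the DTA-1 libraries. Gbp7 stood at 11.1, 27.6 and 9.63 CPM in the isotype libraries and 10.8, 20.5 and 13.1 CPM in the DTA-1 libraries, and Gbp3 at 11.1, 24.9 and 6.96 CPM in the isotype libraries and 6.44, 18.8 and 18.4 CPM in the DTA-1 libraries. In all 4 genes isotype replicate 2 was the highest of the 6 libraries, and the DTA-1 libraries lay within the isotype range except for the lowest of Gbp2 and Gbp3. Their fold changes were -0.29 ± 0.58 for Gbp2, 0.017 ± 0.57 for Iigp1, -0.12 ± 0.46 for Gbp7 and 0.023 ± 0.57 for Gbp3 (log2, SE).

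The Irgm proteins are regulators that keep the effector GTPases off the cell's own membranes, and Igtp (Irgm3) is the third of that kind. Irgm1 stood at 28.7, 39.9 and 24.3 CPM in the isotype libraries and 21.96, 49.9 and 33.5 CPM in the DTA-1 libraries, and Irgm2 at 42.6, 50.02 and 25.8 CPM in the isotype libraries and 35.3, 58.9 and 39.5 CPM in the DTA-1 libraries. Igtp stood at 27.2, 37.5 and 17.4 CPM in the isotype libraries and 20.1, 49.5 and 32.00 CPM in the DTA-1 libraries. These 3 genes were highest in DTA-1 replicate 2, with isotype replicate 2 next for Irgm1, Irgm2 and Igtp alike. Their fold changes were 0.18 ± 0.33, 0.18 ± 0.30 and 0.31 ± 0.39, with adjusted p of 0.8096, 0.798 and 0.722 in edgeR. Igtp and Irgm2 overlap on chromosome 11 (58199556 to 58207591 and 58199618 to 58222782, plus strand, GRCm38), and Igtp shares 11.8% of its 50-base words with other transcripts. Gbp4 lay between 1.19 and 5.58 CPM and Gbp6 between 1.62 and 4.48 CPM. Gbp6 shares 70.7% of its words with other genes, mainly the overlapping Gm43302, the largest share of any member.

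**Figure D3:**
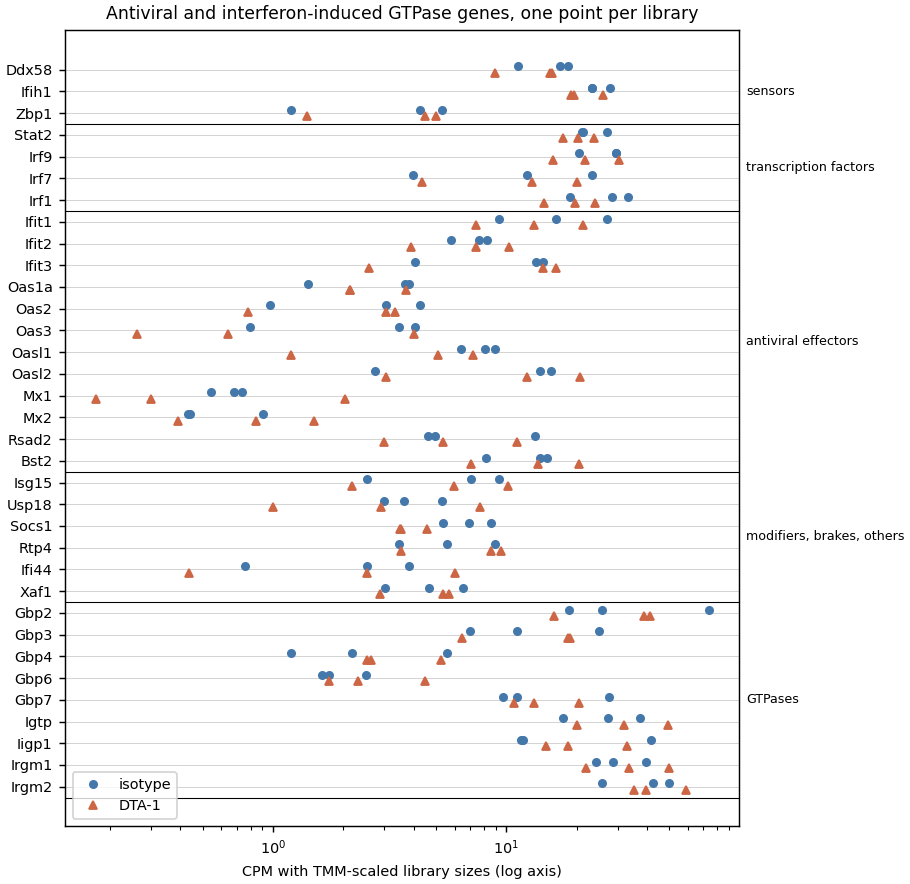
CPM of each member on a log axis, 1 point per library (blue circles isotype, orange triangles DTA-1), ordered by role. Circles and triangles overlap in 33 of 34 rows, and Socs1 is the row in which all triangles lie left of all circles.

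The members varied more between libraries of 1 group than most genes did. Their standard deviation within groups (log2 CPM, prior count 2) had a median of 0.74, against 0.34 over all tested genes and 0.37 over the 10200 tested genes whose mean lies in the members' range of 0.743 to 42.0 CPM. It exceeded the latter median in 31 of 34 members, the exceptions being Ifih1, Stat2 and Socs1. Between the lowest and the highest of the 6 libraries the members' median ratio was 3.64, against 2.12 over those genes.

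This variation ran in the same direction for most members. Isotype replicate 3 was the lowest isotype library in 28 of 34 members and DTA-1 replicate 1 the lowest DTA-1 library in 28, with both true for 26, or 76.5%, against 14.2% of all tested genes. DTA-1 replicate 2 was the highest DTA-1 library in 25 members, or 73.5%, against 27.9% of all tested genes. This library stood apart in its red cell markers, which summed to 2899 CPM against 85.1 to 172 CPM in the other 5, and in the macrophage gene Lyz2, at 1173 CPM, and their part in the members' values was not tested. The list score, a mean of log2 CPM over members, was 2.94, 3.02 and 1.95 in the isotype libraries and 1.65, 3.14 and 2.46 in the DTA-1 libraries for the antiviral genes. For the GTPase genes it was 3.57, 4.57 and 3.17 in the isotype libraries and 3.36, 4.41 and 4.06 in the DTA-1 libraries. Genes of a pathway share their libraries, so these counts are a description of 6 libraries.

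In 1 respect the families parted. Isotype replicate 2 exceeded isotype replicate 1 in 9 of 9 GTPase genes, by a median of 1.12 (log2, with 0.5 CPM added), but in 13 of 25 antiviral genes, by a median of 0.011. Among all tested genes 44.5% were higher in replicate 2. Within the isotype group 12 antiviral genes, among them Irf7, Irf1, Isg15 and Zbp1, were highest in replicate 1, and all 9 GTPase genes in replicate 2. Of the other Gbp and Irg genes that were tested, 6 of 6 were also highest in isotype replicate 2 among isotype libraries. Over all tested genes this held for 23.5%. Markers of B lineage cells were highest in that isotype library in 8 of 8 cases and summed to 6.63, 213 and 11.4 CPM in the isotype libraries and 42.3, 391 and 439.8 CPM in the DTA-1 libraries. The 5 adipocyte markers were highest there in 5 of 5 cases, at 137, 447 and 203 CPM in the isotype libraries and 245, 231 and 1323 CPM in the DTA-1 libraries in sum, and the red cell markers in 4 of 5. T cell markers were highest there in 7 of 9 cases. They summed to 20.5, 23.05 and 11.3 CPM in the isotype libraries and 9.04, 11.6 and 5.904 CPM in the DTA-1 libraries. NK cell markers were highest there in 3 of 5 cases, macrophage markers in 1 of 9 and fibroblast markers in 0 of 6. The part of any of these cells in the difference between the families was not tested.

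**Figure D4:**
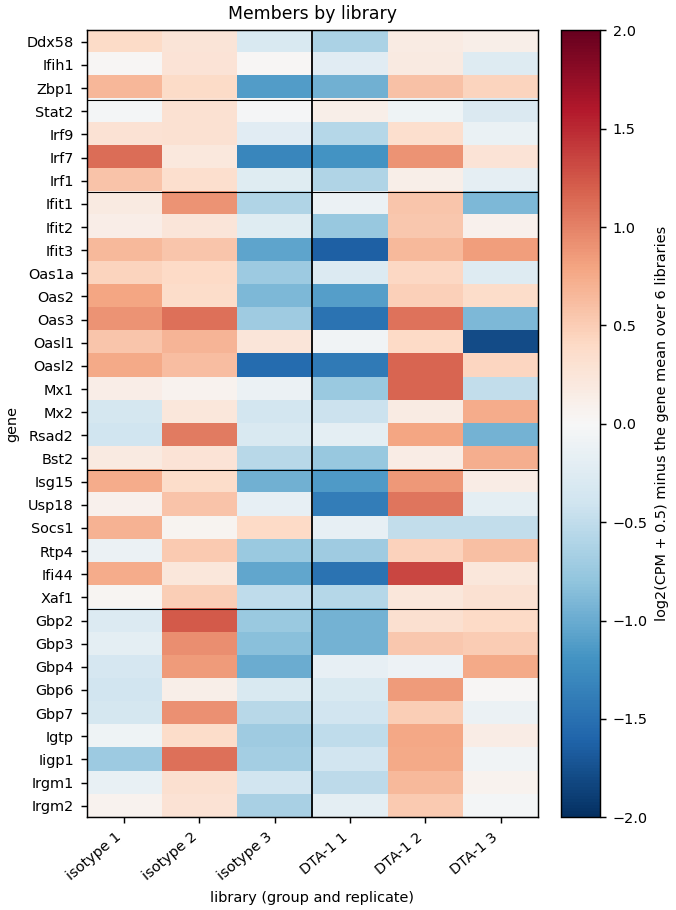
Each cell is the log2(CPM + 0.5) of a gene in a library minus that gene's mean over the 6 libraries, with red above and blue below the mean; rows follow the roles and the vertical line parts isotype from DTA-1. The columns of isotype replicate 3 and DTA-1 replicate 1 are mostly blue, and the GTPase rows at the bottom are reddest in isotype replicate 2 or DTA-1 replicate 2.

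Macrophage and red cell markers shared the lowest library of each group with the members in most cases, and other marker lists did so in part. The 9 macrophage markers, none at 0 in any library, summed to 1119, 508 and 222 CPM in the isotype libraries and 250.1, 1404 and 628 CPM in the DTA-1 libraries. Lyz2 made up most of the highest sum. Without it the other 8 summed to 476, 337 and 138 CPM in the isotype libraries and 142, 231 and 356 CPM in the DTA-1 libraries. Isotype replicate 3 and DTA-1 replicate 1 were both the lowest of their groups in 8 of the 9 macrophage markers. The highest libraries of the macrophage markers differed from those of most members. Isotype replicate 2 was the highest isotype library in 1 of the 9 macrophage markers, against 22 of 34 members. DTA-1 replicate 2 was the highest DTA-1 library in 1 of the 9, against 25 of 34 members. The 6 fibroblast markers summed to 2966, 1090 and 776 CPM in the isotype libraries and 695, 1209 and 1651 CPM in the DTA-1 libraries, and 4 of 6 had both libraries lowest; the exceptions were Dcn, lowest in isotype replicate 2, and Pdgfra, highest in isotype replicate 3. The 6 conventional dendritic cell markers summed to 32.03, 12.8 and 8.37 CPM in the isotype libraries and 7.04, 11.3 and 10.6 CPM in the DTA-1 libraries. Itgax made up most of the isotype replicate 1 sum. It stood at 24.7, 5.47 and 1.84 CPM in the isotype libraries and 0.957, 2.26 and 1.497 CPM in the DTA-1 libraries. In 4 of the 6 dendritic cell markers, isotype replicate 3 and DTA-1 replicate 1 were both the lowest of their groups. The same held for 4 of 5 red cell markers. Red cell markers also shared the highest libraries of most members. Isotype replicate 2 was the highest isotype library in 4 of these 5, and DTA-1 replicate 2 the highest DTA-1 library in 5 of 5. Plasmacytoid dendritic cell markers, of a type known for type I interferon, stayed between 1.57 and 3.54 CPM in sum, with Siglech at 0 in at least 1 library. NK cell markers summed to at most 1.999 CPM, with Ncr1, Klrb1c and Eomes at 0 in at least 1 library. The part of any of these cell types in the members' values was not tested.

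**Figure D5:**
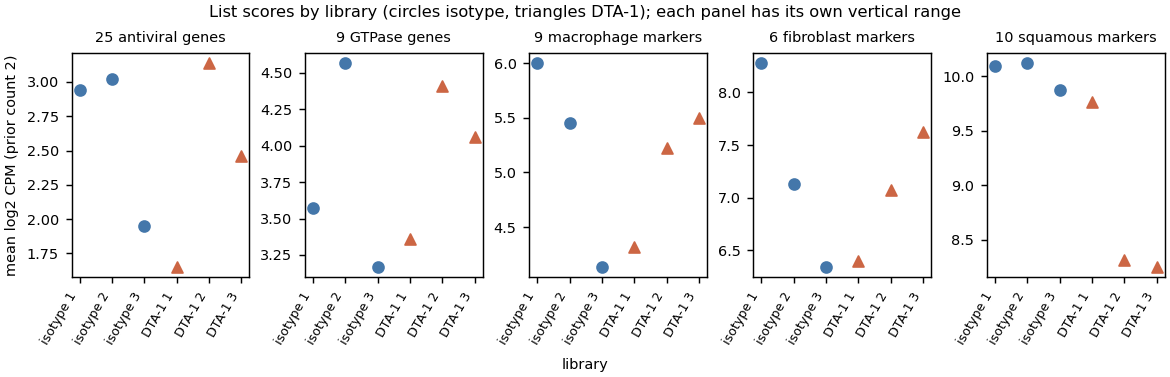
List scores (mean log2 CPM over tested genes) by library for the antiviral and GTPase genes and for 3 marker lists, circles for isotype and triangles for DTA-1, each panel with its own vertical range. Isotype replicate 3 and DTA-1 replicate 1 are lowest of their groups in the first 4 panels, and in the squamous panel DTA-1 replicates 2 and 3 are lowest.

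The interferons themselves were at the edge of detection. Of 10 interferon genes looked up, 7 (Ifna1, Ifna2, Ifna4, Ifna5, Ifnb1, Ifnl2 and Ifnl3) had 0 reads in every library, which allows up to 0.108 to 0.141 CPM per library. Ifng had 0, 4 and 0 reads in isotype and 2, 1 and 0 reads in DTA-1 replicates 1, 2 and 3. Ifne and Ifnk had 1 and 2 reads over all 6 libraries. Isotype replicate 2, with 4 Ifng reads, was the highest isotype library in 9 of 9 GTPase genes, against 23.5% of all tested genes. DTA-1 replicate 1, with 2 Ifng reads, was the lowest DTA-1 library in 9 of 9, against 37.8%. At such counts no difference was detectable, and none of the 10 genes passed the filter for testing.

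The receptors and their kinases followed. Of 10 genes 8 had negative fold changes, 0 passed the test, and 2 were lower at an unadjusted p under 0.05 (Ifngr1 and Ifnlr1), where 52.9% of all tested genes were negative and 7.52% lower at that level. Ifngr1, the ligand-binding chain of the type II receptor, stood at 86.2, 58.7 and 65.7 CPM in the isotype libraries and 44.8, 51.6 and 50.1 CPM in the DTA-1 libraries, with a fold change of -0.52 ± 0.18 and an adjusted p of 0.39 in edgeR. Its partner Ifngr2 stood at 53.3, 31.4 and 33.1 CPM in the isotype libraries and 28.7, 41.7 and 49.03 CPM in the DTA-1 libraries. Ifngr1 did not overlap between groups, like 9.38% of all tested genes with DTA-1 lower, and Ifngr2 did. The type I receptor chains Ifnar1 and Ifnar2 averaged 31.2 ± 2.702 CPM under isotype antibody and 26.1 ± 2.98 CPM under DTA-1 and 13.03 ± 2.46 CPM under isotype antibody and 11.96 ± 2.09 CPM under DTA-1 (SD, n = 3 each). Ifnlr1, the type III receptor chain typical of epithelia, stood at 5.01, 4.64 and 3.46 CPM in the isotype libraries and 2.696, 2.69 and 1.03 CPM in the DTA-1 libraries (fold change -1.03 ± 0.44, adjusted p = 0.392 in edgeR). The summed squamous markers did not overlap between groups either, with DTA-1 lower, and their part in the Ifnlr1 values was not tested.

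Among 13 sensing and adaptor genes 11 had negative fold changes (median -0.39), and 2 were lower at the unadjusted level, against 52.9% and 7.52% of all tested genes. Trim25, the ubiquitin ligase that activates RIG-I, stood at 64.4, 71.3 and 61.8 CPM in the isotype libraries and 48.3, 44.9 and 30.6 CPM in the DTA-1 libraries, and Myd88, the adaptor of Toll-like and interleukin-1 receptors, at 46.8, 42.9 and 44.9 CPM in the isotype libraries and 36.2, 23.4 and 29.7 CPM in the DTA-1 libraries. Neither overlapped between groups (DTA-1 lower, against 9.38% of all genes), with fold changes of -0.67 ± 0.20 and -0.59 ± 0.19 and an adjusted p of 0.39 each in edgeR. Of 23 other antiviral genes 15 had negative fold changes (median -0.16). Adar, which edits double-stranded RNA, stood at 21.1, 23.95 and 24.9 CPM in the isotype libraries and 17.2, 13.9 and 13.2 CPM in the DTA-1 libraries, and Eif2ak2, the kinase PKR that halts translation, at 16.4, 17.3 and 17.9 CPM in the isotype libraries and 12.04, 12.4 and 14.4 CPM in the DTA-1 libraries. For both the groups were apart with DTA-1 lower, with fold changes of -0.66 ± 0.18 and -0.41 ± 0.18 and adjusted p of 0.39 and 0.395 in edgeR. Of 10 other GTPase genes 6 were tested, with 3 fold changes of each sign; Gbp9 averaged 5.14 ± 1.22 CPM under isotype antibody and 6.18 ± 1.36 CPM under DTA-1, and Gbp10 1.398 ± 0.622 CPM under isotype antibody and 2.12 ± 1.65 CPM under DTA-1. Over all 52 tested genes of these lists, 5 were lower at the unadjusted level and 0 higher, against 7.52% and 5.21% of all tested genes. In 6 of the 52 the groups were apart with DTA-1 lower, against 9.38%, and the median fold change was -0.16. The shares that were lower lie near those over all genes.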

How the data were processed

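RNA-seq of 6 esophagus libraries, 3 per group, was analysed from whole-number read counts per Ensembl gene, which the authors deposited without normalization. The build was mm10 and the tools named are STAR, DESeq2 1.14.1, HTSeq 0.6.1p1 and cutadapt 1.13, per the submitters' processing notes; what each did, its settings and the strand were not found in the labels, so that reads of overlapping or near-identical genes are uncertain. Symbols, positions and exon lengths came from GENCODE release M21 (GRCm38). Genes were filtered with filterByExpr (minimum count 10, total 15), scaled by TMM and tested with edgeR 4.0.16 (robust quasi-likelihood test, treatment as the sole term) in R 4.3.3, with Benjamini-Hochberg adjustment over 15763 genes at 0.05. Alternatives were limma-voom (3.58.1), DESeq2 1.42.0, other scalings, filters, a replicate block, muscle markers removed and each library left out. On counts simulated for this comparison with 200 changed genes, edgeR made 3 false calls, and 0 with none changed. No 2 libraries matched within sampling noise (smallest median chi-square 3.98 against 0.455). Members and lists were chosen with earlier results of these data known. Library values are given for members with a mean of at least 5 CPM or an unadjusted p under 0.05, and ranges for the other 11. Other pathway genes with values are Ifng, the type I and II receptor genes and the 2 smallest p per list. 1 further gene fixed with them is not reported here. Other genes were named after their values were seen. Shared sequence was counted over 50-base words of transcripts on either strand.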

Additional observations from a re-analysis of the deposited data

How the results depend on the processing

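The summary results were 0 genes and 0 members called, and the 3 list medians. The count of all genes was 180 of 16084 in DESeq2 and 601 of 16303 without DTA-1 replicate 1, where 539 were lower, and 0 in the other 13 alternatives. It ranged from 0 to 601 with single libraries left out. Members called stayed at 0 in all 15. With single libraries left out, the medians ran from -0.49 to 0.22 (antiviral), -0.16 to 0.62 (GTPase) and -0.36 to 0.00245 (other interferon pathway genes). Each of the 3 thus changed sign. All shifts were smaller than the pooled SD of the list scores within groups (0.67 antiviral, 0.63 GTPase, 0.38 other pathway genes). Leaving out 1 of 3 libraries can hardly move a list by more than that SD, so this comparison does not show that the medians are stable. Without DTA-1 replicate 2, Mx1 and Oas3 had an unadjusted p under 0.05, as did 773 of 16218 tested genes. Socs1 kept that level when isotype replicate 2 or DTA-1 replicate 1 was left out but not with any other library. In those 2 fits 827 of 16105 and 4009 of 16303 tested genes were at that level. Fold changes that turned sign were, with library totals alone, Ifit3 (-0.15), Oasl2 (-0.080), Bst2 (-0.026), Zbp1 (-0.20), Gbp3 (-0.20), Iigp1 (-0.22), Irgm1 (-0.017), Irgm2 (-0.026) and Ifngr2 (-0.15); with RLE factors, Ifit2 (0.029) and Xaf1 (0.00019); with upper-quartile factors, Isg15 (0.043), Ifit2 (0.079), Usp18 (0.048) and Xaf1 (0.046). In DESeq2 it was Ifit2 (0.025), in limma-voom Ifit3 (-0.12), Mx1 (-0.42) and Ifi44 (-0.050). Left-out libraries gave sign changes with these ranges: Isg15 -0.62 to 0.37, Ifit1 -0.77 to 0.15, Ifit2 -0.35 to 0.29, Ifit3 -0.32 to 0.54, Mx1 -1.44 to 0.82, Oas1a -0.47 to 0.086, Oas2 -0.59 to 0.26, Oasl2 -0.49 to 0.61, Rsad2 -0.86 to 0.46, Irf7 -0.62 to 0.63, Usp18 -1.02 to 0.41, Ifi44 -0.68 to 0.88, Bst2 -0.25 to 0.47, Zbp1 -0.37 to 0.43, Xaf1 -0.25 to 0.29, Gbp2 -0.61 to 0.56, Gbp3 -0.28 to 0.71, Gbp4 -0.21 to 1.06, Gbp7 -0.43 to 0.53, Igtp -0.069 to 0.62, Iigp1 -0.39 to 0.93, Irgm1 -0.16 to 0.43, Irgm2 -0.076 to 0.40, Ifnar2 -0.23 to 0.034 and Ifngr2 -0.16 to 0.32. The cause was not tested.

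The labels do not say whether replicate numbers pair the libraries. Deviations of same-numbered libraries from their group means correlated at 0.02, -0.33 and -0.09 over all tested genes. These values give no sign of pairing but cannot exclude a shared batch. With the replicate block, edgeR called 0 genes and 0 members, the medians were -0.16, 0.19 and -0.13, and Ifit3 (-0.066), Mx1 (-0.30) and Irf7 (0.10) changed sign. Precision is limited by 3 libraries a group and, below about 1 CPM, by counts.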

Other observations

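Ifit1bl1, an Ifit1-like gene singled out after its values were seen, had 370, 16 and 11 reads in isotype and 7, 553 and 10 reads in DTA-1 replicates 1, 2 and 3, or 13.6, 0.604 and 0.397 CPM in the isotype libraries and 0.304, 26.1 and 0.428 CPM in the DTA-1 libraries. Isotype replicate 1 and DTA-1 replicate 2 held nearly all of its reads, and Ifit1 itself was highest in isotype replicate 2. The labels do not say whether all mice had the same strain background. Lyz2 was also highest in isotype replicate 1 and DTA-1 replicate 2, at 643, 170 and 84.1 CPM in the isotype libraries and 108, 1173 and 272 CPM in the DTA-1 libraries. It was the 1 macrophage marker of 9 that was highest in DTA-1 replicate 2 among DTA-1 libraries. The part of strain or of macrophages in the Ifit1bl1 split was not tested. Ifit3b, a relative of Ifit1bl1, stood at 10.6, 6.87 and 4.29 CPM in the isotype libraries and 3.22, 13.3 and 13.1 CPM in the DTA-1 libraries.

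Some other genes of the pathway varied less, whereas Sp100, for example, ranged from 4.74 to 17.1 CPM. Jak1, a kinase that serves all interferon receptors, averaged 157 ± 14.2 CPM under isotype antibody and 157 ± 0.339 CPM under DTA-1 (SD, n = 3 each), and Tbk1, the kinase that activates Irf3, averaged 33.4 ± 2.98 CPM under isotype antibody and 33.2 ± 2.85 CPM under DTA-1. 2 other interferon-induced genes exceeded every member in level per kilobase of exon: Ifitm3, a membrane protein that blocks virus entry, at 219 CPM and Ifi27 at 35.2 CPM, averaged over 6 libraries. Ifitm3 stood at 209, 185 and 113 CPM in the isotype libraries and 104, 147 and 133 CPM in the DTA-1 libraries, low in isotype replicate 3 and DTA-1 replicate 1 like most members.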
